A study of Rattus norvegicus with 24 samples.

Results

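The olfactory receptor genes linked to the rat MHC on chromosome 20 were examined in skin explants after co-culture with lymphocytes. Members were all non-control probes of the array whose symbol in the study's table of MHC genes was Or followed by a number. This rule found 90 probes for 20 genes, *Or1* to *Or15* and *Or26* to *Or30*, out of 8453 probes and 7249 genes on the array. Of the 90 probes, 85 had been custom-designed by the study and 5 were catalog probes of the manufacturer. *Or1* and *Or9* had 6 probes each, *Or11*, *Or26* and *Or29* had 1 each, and the other genes had 5.

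Skin from the paws of 12 male BN rats (MHC haplotype RT1n) aged 15 weeks was divided into explants. From each rat, an explant was cultured for 3 days with syngeneic BN lymphocytes and another with allogeneic PVG lymphocytes (RT1c), both taken from a 7-day mixed lymphocyte reaction (MLR) in which the stimulator cells were irradiated BN splenocytes. The 2 RNA samples of a rat were hybridized together to a 2-color array, and again to another array with the dyes exchanged, so that 24 arrays gave 12 replicates. The values are log2 ratios of allogeneic over syngeneic, averaged over the 2 arrays of a rat. An explant is a mixture of skin cells and of any lymphocytes that stayed on it, so that fewer cells of a type and less RNA per cell cannot be told apart.

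Olfactory receptors are G protein-coupled receptors with 7 membrane-spanning helices, encoded by a single coding exon each. They form the largest gene family of the rodent genome and are known for odorant detection in the sensory neurons of the nasal epithelium, where the olfactory G protein Gnal and the adenylyl cyclase Adcy3 carry the signal to a cyclic nucleotide-gated channel. A large cluster of these genes lies beside the MHC class I genes in rodents and humans, and transcripts of some members of the family are found in tissues outside the nose, skin included. Close relatives in a cluster can differ in few bases, so that the probe sequence decides which transcript is measured.

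Single probes for *Or3*, *Or13*, *Or28* and *Or30* passed the threshold, and their sequences are shown here with that of an *Or13* probe whose mean had the opposite sign. Capitals in the *Or3* probe mark the bases it shares with custom probe 1 for *Or4*.
Or3 custom probe 5: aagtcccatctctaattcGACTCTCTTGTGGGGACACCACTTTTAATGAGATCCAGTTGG
Or4 custom probe 1: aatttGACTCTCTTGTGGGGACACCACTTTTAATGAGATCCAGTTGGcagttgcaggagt
Or13 custom probe 2: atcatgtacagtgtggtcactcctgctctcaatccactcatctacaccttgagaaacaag
Or13 custom probe 4: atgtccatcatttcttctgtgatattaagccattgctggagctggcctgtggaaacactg
Or28 custom probe 2: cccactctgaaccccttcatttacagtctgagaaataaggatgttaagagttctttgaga
Or30 custom probe 4: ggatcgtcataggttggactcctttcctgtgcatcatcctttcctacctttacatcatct
The shared run of this *Or3* and *Or4* pair was 42 bases of 60. The 25 pairs of an *Or3* with an *Or4* probe shared 42 to 50 bases each. The probes of a gene also overlapped where the design tiled a short stretch. Any 2 *Or3* probes shared 52 to 59 bases and any 2 *Or4* probes 56 to 59, while the probes for *Or12*, *Or27* and *Or30* shared no run of 8 bases or more. Several probes of a tiled gene are therefore close to a single probe. GC content of the 90 probes lay between 35% and 55%, with a median of 45%.

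The symbols of 2 genes conflicted with the sequences. The custom probes listed for *Or28* carried the transcript accession that RefSeq (assembly GRCr8) assigns to *Or1o2*, with the synonym *Or9*, and the custom probes listed for *Or9* carried that of *Or1o11*, with the synonym *Or28*. The catalog probe for *Or9*, which the files place at chr20:1438812-1438871 on build rn3, shared 59 of its 60 bases with custom probe 1 listed for *Or28*. Capitals mark that run.
Or9 catalog probe: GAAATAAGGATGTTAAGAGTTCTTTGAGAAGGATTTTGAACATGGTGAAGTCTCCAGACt
Or28 custom probe 1: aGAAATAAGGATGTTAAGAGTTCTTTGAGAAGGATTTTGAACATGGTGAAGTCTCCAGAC
The longest run that this catalog probe shared with the 5 custom probes listed for *Or9* was 20 bases. The custom probes listed for *Or30* carried the accession of *Or5v1b* (*Olr1730*), whereas RefSeq gives the synonym *Or30* to *Olr1869*. The catalog probe listed for *Or1* was designed for the mouse gene *Olfr90*. RefSeq names 19 of the 20 genes through their synonyms, all but *Or6*, and marks *Or4*, *Or10* and *Or27* as pseudogenes. The table's symbols are used below.

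Most of these probes gave signal in skin. An array was counted for a probe when over 50% of its spots carried the scanner flag for well above background in the channel of the sample. Of the 90 probes, 56 were well above background in both samples on 24 of 24 arrays, and 74 on at least 12. The share on all 24 was 62.2%, against 69.8% of all probes on the array. It was 43.9% of the 1099 further probes with olfactory receptor names of the form Olr and a number. Those stand for 1096 genes, while most member genes had 5 probes, some of them tiled over a short stretch. Median GC was 40% for the further probes and 45% for the members. The part of probe design in these shares was not tested. Every probe for *Or1*, *Or4*, *Or5* and *Or6* reached 24 arrays in both samples, and none for *Or2*, *Or11* or *Or29* did. Within *Or9*, 3 custom probes reached 24 arrays in both samples, while the catalog probe reached 2 arrays in the allogeneic and 1 in the syngeneic sample. 10 probes were well above background on 3 arrays or fewer in both samples. They were probes for *Or9*, *Or13*, *Or14*, *Or15*, *Or27*, *Or28* and *Or30*. Array 1 of rat 10 was far brighter than the others, with a median Cy5 intensity of 25640 where the other arrays reached at most 414.9, and 2 of the 10 probes were above background on that array alone. Signal on a probe shows hybridization to its bases and not which of the related genes supplied the transcript.

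**Figure D1:**
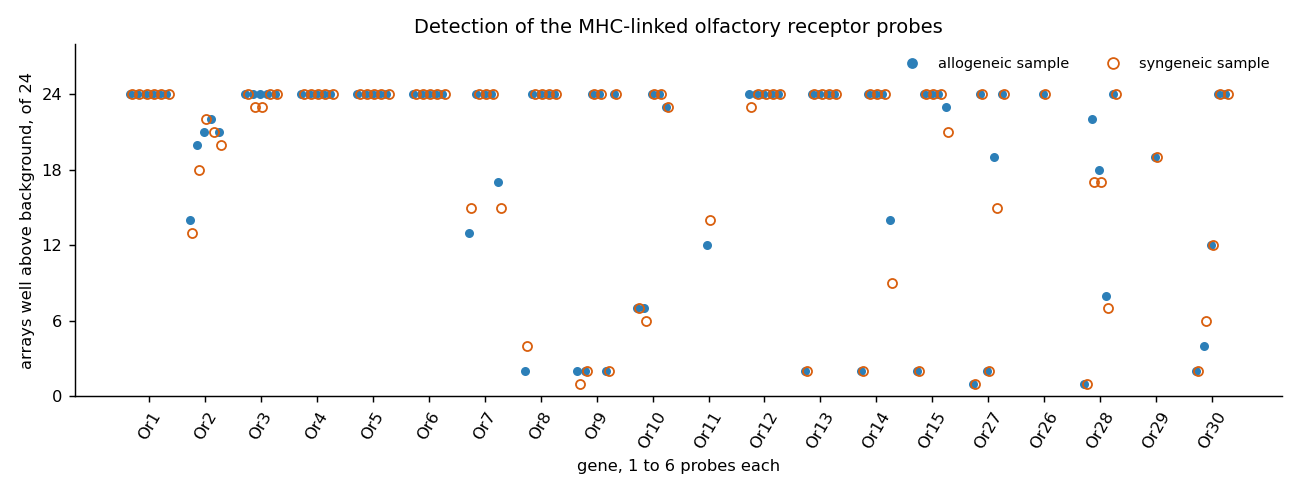
Number of arrays, of 24, on which each probe was well above background (y axis), by gene in the order of the MHC gene table (x axis), with filled points for the allogeneic and open points for the syngeneic sample of the same probe. Most points sit at 24. Some probes of *Or8*, *Or9*, *Or13*, *Or14*, *Or15*, *Or27*, *Or28* and *Or30* lie near the bottom, more than 1 of them for *Or9* and *Or27*, while other probes of the same genes sit at 24.

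Few olfactory receptor probes differed between allogeneic and syngeneic co-culture, and the differences were small. By limma over 12 rats with Benjamini-Hochberg adjustment over all 8453 probes, 4 of the 90 probes passed an adjusted p of 0.05, or 4.44%, against 17.3% of all probes. All 4 were higher in the allogeneic sample, and in that direction 8.78% of all probes passed. Signs follow the dye labels of the samples and are opposite to those in which the study describes its regulated genes. The study's qRT-PCR also gave the opposite direction for *Ubd*. Which direction holds was not tested. The 90 probe means lay between -0.074 and 0.13 on the log2 scale, or 0.950-fold to 1.09-fold, with a median of -0.0045 where the median over all probes was 0.011. Their size depended on the background treatment, and the means lay between -0.24 and 0.25 with the scanner's processed signals and between -0.35 and 0.14 in the deposited log2 table. The lowest of both was custom probe 1 for *Or14*, which was well above background on 2 arrays in each sample. The median size over all probes then rose as well, from 0.049 to 0.10, and that of the 90 probes from 0.022 to 0.053. Of the 90 means 38 were above 0. The median SD over rats was 0.072 for these probes and 0.13 over all probes. At an unadjusted p under 0.05 there were 18 of the 90 probes, or 20%, against 30.2% of all probes.

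When the probes of a gene were averaged in each rat, none of the 20 genes passed limma with adjustment over 7249 genes, where 16.2% of all genes passed. At an unadjusted p under 0.05 there was 1 gene, *Or26*, with an adjusted p of 0.16. A plain t test of the rat means against 0 stood in for the study's mixed-effects ANOVA, which was not refitted. That t test and the exact signed-rank test also called 0 of the 20, with 3 and 4 genes under an unadjusted p of 0.05. Over all genes they called 15.3% and 18.6%. With normexp correction, the 95% t intervals of the 20 gene means spanned -0.11 to 0.11 on the log2 scale, which is 0.927-fold to 1.08-fold. This range depended on the background treatment. With the scanner's processed signals the means of *Or4* and *Or3* were 0.14 and 0.13, above that bound, and 0 of the 20 genes passed limma.

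**Figure D2:**
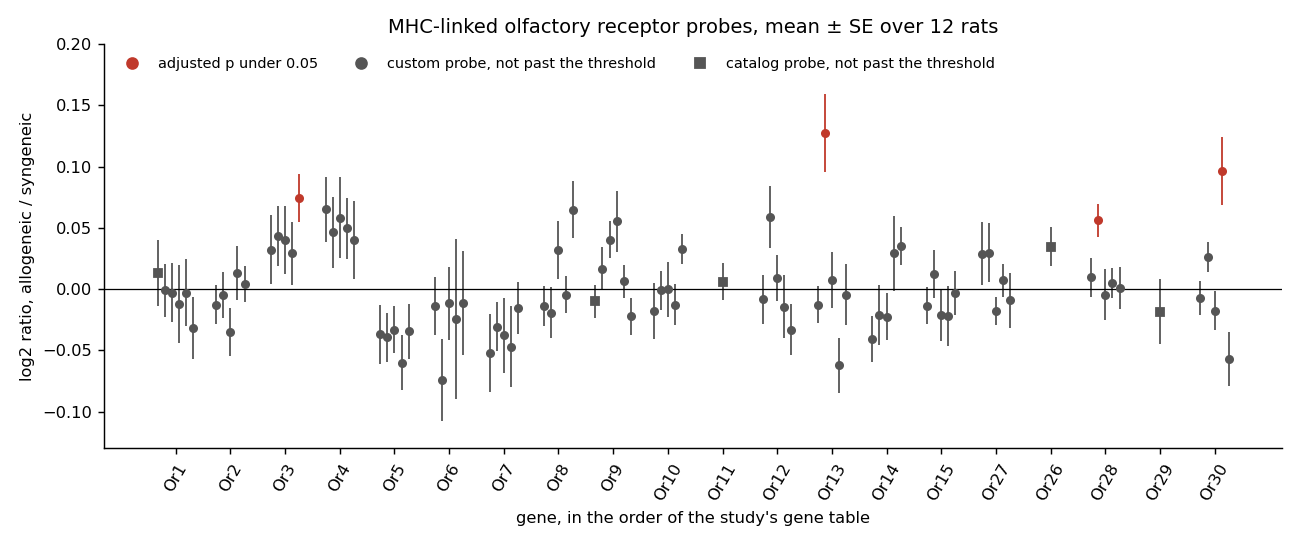
Mean log2 ratio of allogeneic over syngeneic (y axis) of each of the 90 probes, with the SE of the limma fit over 12 rats, by gene (x axis). The 4 red probes, for *Or3*, *Or13*, *Or28* and *Or30*, passed the threshold, and the highest mean is 0.13.

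The largest difference with normexp correction was that of custom probe 2 for *Or13* (RefSeq *Or12d2c*), a receptor gene with protein-coding annotation. The level of a sample is given as its log2 intensity after loess within and quantile scaling between arrays, averaged over both arrays of a rat. For this probe it had a lowest value of 7.72, a median of 8.30 and a highest value of 8.52 in the allogeneic samples, and 7.30, 8.21 and 8.35 in the syngeneic samples, so that the groups overlapped. The log2 ratio within rats was -0.032 at the lowest, 0.098 at the median and 0.42 at the highest, and it was above 0 in 11 of 12 rats. The mean was 0.13 ± 0.11 (SD, n = 12), with an adjusted p of 0.016 by limma. Rats 10 and 8 gave the highest values, 0.42 and 0.24. The other *Or13* probes did not share this difference. Custom probe 4 was above 0 in only 1 of 12 rats, with a mean of -0.062 and an adjusted p of 0.080, and custom probe 3 had a mean of 0.0076. Custom probe 1 was well above background on 2 arrays in each sample. Custom probe 5 had a mean of -0.0045 and shares a run of 52 bases with custom probe 4 for *Or15*, in capitals, whose mean was -0.022.
Or13 custom probe 5: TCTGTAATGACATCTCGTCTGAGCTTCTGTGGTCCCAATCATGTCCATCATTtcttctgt
Or15 custom probe 4: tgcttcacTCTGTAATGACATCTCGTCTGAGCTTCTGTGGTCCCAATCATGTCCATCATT
Averaged over 5 probes, *Or13* was at 0.011 ± 0.030 (SD, n = 12), with an adjusted p of 0.62.

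The probe listed for *Or28* was the only member probe above 0 in all 12 rats. Custom probe 2 ranged from 6.62 to 7.15 in normalized log2 level in the allogeneic samples (median 6.74) and from 6.60 to 7.05 in the syngeneic samples (median 6.68). The groups overlapped in nearly their whole range. Its ratio had a lowest value of 0.0095, a median of 0.050 and a highest value of 0.11, with a mean of 0.056 ± 0.032 (SD, n = 12) and an adjusted p of 0.012 by limma. The size of this difference depended on the background treatment. It was 0.14 with plain subtraction, 0.14 in the deposited log2 table and 0.25 with the processed signals, where it was above the 0.18 of the *Or13* probe. This probe was well above background on 22 arrays in the allogeneic and on 17 in the syngeneic sample. The other probes listed for *Or28* had means from -0.0045 to 0.0098, and none passed. By its accession the probe belongs to *Or9*. The 5 custom probes listed for *Or9*, which by accession belong to *Or28*, had means between -0.022 and 0.055, and none passed either. The *Or9* catalog probe shares a run of 29 bases with the called probe. Its mean was -0.010, and it was well above background on 2 arrays in the allogeneic and 1 in the syngeneic sample.

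*Or30* (custom probe 4) was above 0 in 10 of 12 rats, with a lowest ratio of -0.020, a median of 0.095 and a highest ratio of 0.26. The level ran from 8.38 to 8.96 in the allogeneic and from 8.31 to 8.70 in the syngeneic samples, again with overlap. The mean was 0.096 ± 0.094 (SD, n = 12), with an adjusted p of 0.029 by limma. The call ended on leaving out rat 3, 5, 10, 11 or 12 in turn, the adjusted p then being 0.052 to 0.064. It was also lost without array 1 of rat 10, where the mean was 0.070 and the adjusted p 0.10, and it was not made in the replicate-block fit of all 24 arrays (adjusted p = 0.16). Custom probe 5 of the gene had a mean of -0.057 and was above 0 in 2 of 12 rats, with an adjusted p of 0.099.

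*Or3* (RefSeq *Or2h1b*) and *Or4*, a pseudogene, are neighbors whose tiled probes shared most of their bases, and all 10 probes had means above 0. The *Or3* probes ranged from 0.029 to 0.074 and the *Or4* probes from 0.040 to 0.065. The single call was custom probe 5 for *Or3*, with a lowest ratio of -0.023, a median of 0.084 and a highest ratio of 0.18, above 0 in 10 of 12 rats, and a mean of 0.074 ± 0.063 (SD, n = 12, adjusted p = 0.021 by limma). Its level ran from 7.21 to 7.83 in the allogeneic and from 7.10 to 7.85 in the syngeneic samples. The probes differed most in rat 10, where custom probe 5 gave 0.11 and the other 4 *Or3* probes gave -0.087 to -0.15. *Or4* had the highest gene mean of the 20, 0.052 ± 0.097 (SD, n = 12), and *Or3* the next, 0.044 ± 0.074, with adjusted p of 0.25 and 0.22. These 2 neighbors differed by less than the spread between rats.

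**Figure D3:**
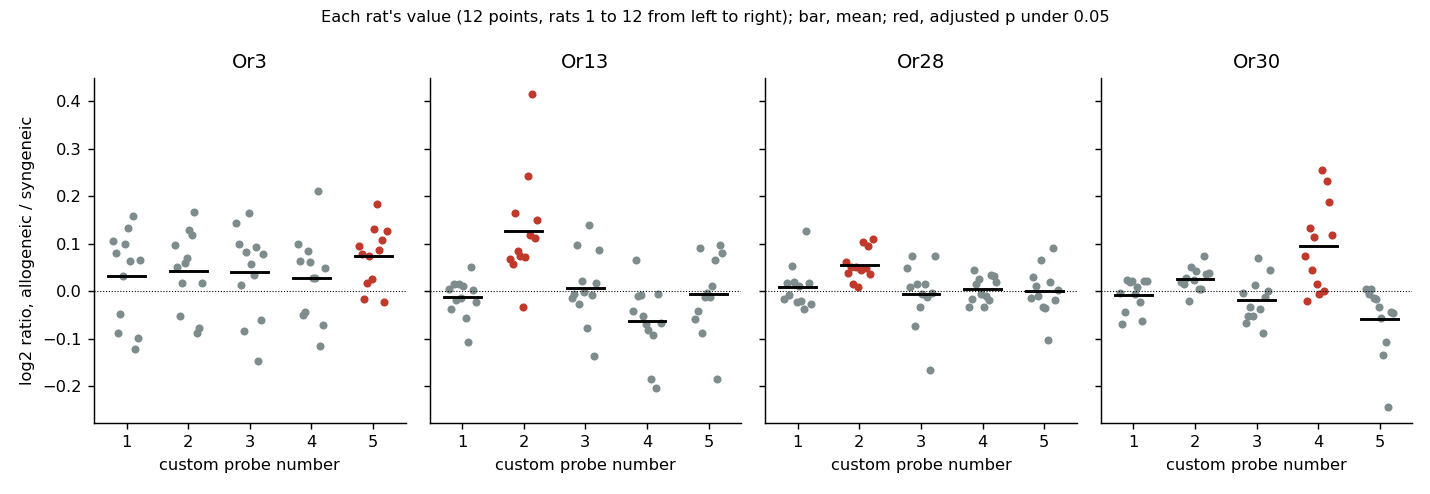
Log2 ratio of allogeneic over syngeneic of each of the 12 rats (points, rats in number order from left to right) for the 5 custom probes of *Or3*, *Or13*, *Or28* and *Or30*, with the mean as a bar and probes past the threshold in red. Rat 10 is the highest point of *Or13* custom probe 2, at 0.42, and the other probes of these genes scatter on both sides of 0.

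*Or5* (RefSeq *Or2h2c*) had the lowest gene mean, at -0.041 ± 0.065 (SD, n = 12), above 0 in 2 of 12 rats, with an adjusted p of 0.21. The size of this mean depended on rat 10, at -0.23, and the median over rats was -0.029. Without that rat the mean was -0.024, still below 0, and *Or29* had the lowest, at -0.027. The 5 custom probes of *Or5* lay between -0.060 and -0.033. A catalog probe for the same gene, which the study's MHC table does not list, lies at chr20:1489921-1489980 on build rn3 by the files and gave the opposite sign. Both sequences are shown for comparison, with capitals for the 22 bases that the catalog probe shares with custom probe 5 for *Or3*, the called probe shown above.
Or5 catalog probe outside the table: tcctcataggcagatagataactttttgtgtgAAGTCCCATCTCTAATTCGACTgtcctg
Or5 custom probe 4: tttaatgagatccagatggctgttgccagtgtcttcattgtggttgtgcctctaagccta
The catalog probe was above 0 in 9 of 12 rats, with a lowest ratio of -0.031, a median of 0.058 and a highest ratio of 0.17, and a mean of 0.076 (adjusted p = 0.040 by limma). It was well above background on 24 arrays in both samples, as were the custom probes of *Or5*, and shared no run of 8 bases or more with any of these. That *Or3* probe, with a mean of 0.074, was also above 0. A catalog probe for *Or3* outside the table shares a run of 22 bases with it as well. Its mean was 0.038, with an adjusted p of 0.25 by limma. Whether shared bases bear on these signs was not tested. *Or7* (RefSeq *Or10c1*) and *Or6* had the next lowest gene means, -0.037 ± 0.079 and -0.027 ± 0.13 (SD, n = 12), with adjusted p of 0.34 and 0.67. Rat 8 gave the lowest value of all 5 *Or6* probes, down to -0.53, and without it the *Or6* mean was 0.0037.

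*Or8* (RefSeq *Or11a4*) had a gene mean of 0.012 ± 0.036 (SD, n = 12) and an adjusted p of 0.63. Its highest probe, custom probe 5, was above 0 in 10 of 12 rats, with a mean of 0.065 and an adjusted p of 0.073. *Or1* (RefSeq *Or2h2*) had a gene mean of -0.0063 ± 0.084. Of the genes with a single probe, *Or26* (RefSeq *Or1o1*) was above 0 in 10 of 12 rats, with a mean of 0.035 ± 0.044. *Or11* (RefSeq *Or1o2e*) was at 0.0061 ± 0.041, above 0 in 6 rats. *Or29* (RefSeq *Or12d17*) was at -0.018 ± 0.091, also above 0 in 6 rats, with rat 8 at -0.28. The gene means of the other 7 genes lay between -0.0096 (*Or15*) and 0.014 (*Or9*), and no probe of theirs passed.

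Precision could be read from probes of the same sequence. Custom probe 5 for *Or1* and a catalog probe named *Olr1750* in the files are the same 60 bases, and their means were -0.032 and -0.018, with a Pearson's r of 0.67 over the 12 rats. The 2 probes with 59 shared bases shown above for *Or9* and *Or28* gave -0.010 and 0.0098, with r = 0.12. Both were well above background on 1 or 2 arrays only. Across the member probes, 49 pairs of a gene that shared 40 bases or more had a median r of 0.85 over rats. The 110 pairs of a gene that shared under 20 bases had a median r of 0.19, and the 30 pairs from different genes that shared 40 bases or more had 0.86. Pairs from different genes below 40 shared bases, 3795 in number, had a median r of 0.062. All pairs share the arrays and the rats, and these correlations are given as a description.

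The study's MHC table lists 90 probes of the cluster, and 8 further catalog probes on the array carry accessions of the same member genes by RefSeq name or synonym, which the member rule did not use. The *Or5* probe above was the only call among them. The probe for *Or15* was at 0.050, above 0 in 11 of 12 rats, with an adjusted p of 0.053, but was well above background on 7 arrays in the allogeneic and 4 in the syngeneic sample. The probes for *Or28* and *Or3* were at 0.042 and 0.038, with adjusted p of 0.15 and 0.25. Those for *Or8*, *Or7*, *Or30* and *Or1* lay between -0.018 and 0.0025. A further 7 catalog probes for olfactory receptor genes of the same stretch, which carry no member symbol, gave no call. *Olr1734* was among them at 0.087 (adjusted p = 0.070). Another was a probe for *Or5v1b*, whose accession the custom probes listed for *Or30* carry. It shared 53 bases with custom probe 2 and no run of 8 bases or more with the called custom probe 4. Its mean was -0.0012, and it was well above background on 4 arrays in the allogeneic and 6 in the syngeneic sample.

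Dye orientation mattered for many of these probes. For 61 of the 90 probes, or 67.8%, the difference between the orientations (the mean of the 12 arrays with the allogeneic sample in Cy5 minus that of the 12 with it in Cy3, divided by 2) was larger than the mean ratio itself, where this held for 71.9% of the 1099 further olfactory receptor probes and for 51.2% of all probes. The sign was the same in both orientations for 29 of the 90 probes. All 5 *Or4* probes lay below 0 with the allogeneic sample in Cy5 (-0.065 to -0.027) and above 0 with it in Cy3 (0.13 to 0.17), and all 5 *Or5* probes did the reverse, with 0.024 to 0.065 and -0.14 to -0.12. Of the called probes, *Or13* was at 0.20 and 0.056, *Or28* at 0.10 and 0.012, *Or3* at 0.031 and 0.12, and *Or30* at 0.24 and -0.047. A dye effect that is constant for a probe cancels in the mean over both orientations. With 1 orientation alone it does not, and limma then called 15 of the 90 probes (16.7%) with the allogeneic sample in Cy5, against 31.5% of all probes, and 24 (26.7%) with it in Cy3, against 29.6%.

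**Figure D4:**
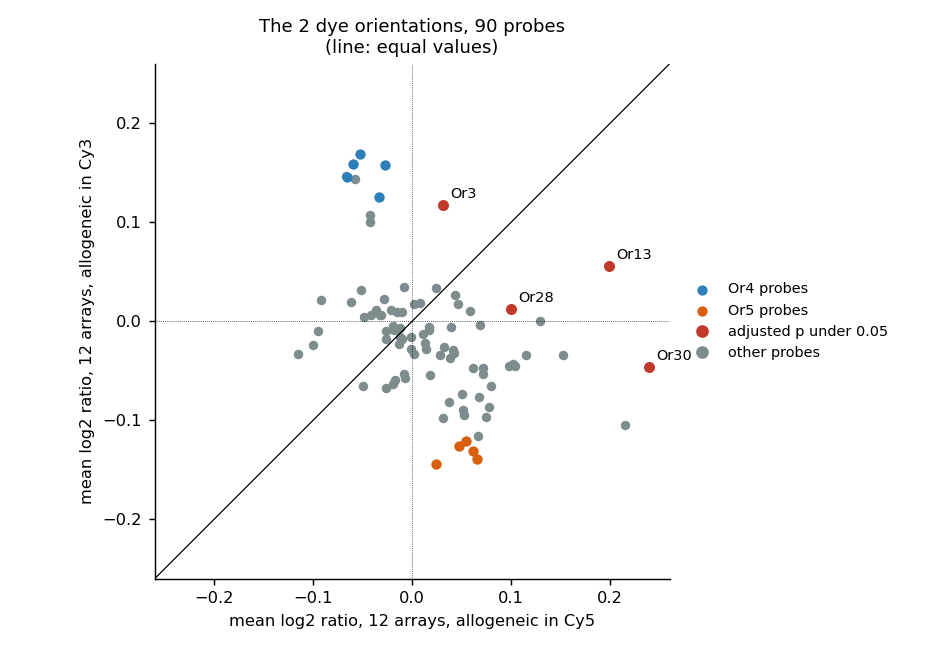
Mean log2 ratio of allogeneic over syngeneic of each of the 90 probes over the 12 arrays with the allogeneic sample in Cy5 (x axis) and over the 12 arrays with it in Cy3 (y axis), with the diagonal marking equal values. Most probes lie off the diagonal, the *Or4* probes at the upper left and the *Or5* probes at the lower right, and *Or3*, *Or13* and *Or28* (red) lie above 0 on both axes.

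Rats 8 and 10 carried most of the spread. The largest ratio in size came from rat 8 for 30 of the 90 probes and from rat 10 for 32. The SD over the 90 probes was 0.15 in each of these rats, and 0.044 to 0.074 in the other 10. Over all probes, the ratios of rat 8 had the lowest correlation with the mean of the other rats, r = 0.22, and the 2 arrays of rat 10 the lowest with each other, r = 0.13. Without both rats, limma called 3 of the 90 probes, those for *Or3*, *Or13* and *Or28*, against 25.2% of all probes, and 0 of 20 gene means (2 at an unadjusted p under 0.05), against 24.4% of all genes. The 3 slides, with 4 rats each, gave means of 0.094, 0.090 and 0.20 for the *Or13* probe, 0.043, 0.053 and 0.073 for the *Or28* probe, 0.044, 0.10 and 0.075 for the *Or3* probe and 0.058, 0.095 and 0.14 for the *Or30* probe. The direction was the same on each slide.

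Few of the 1099 further olfactory receptor probes were called. In all, 34 or 3.09% passed limma, 28 higher and 6 lower in the allogeneic sample, with a median ratio of 0.0050 over all of them. Of the 1099, 44 lie on chromosome 20 by the files or RefSeq, and the *Or5* catalog probe was the only call among these. Of the 1055 others, 33 or 3.13% passed. This share and the 4.44% of the MHC-linked probes stand beside 17.3% of all probes, and the differences between these shares were not tested. Restricted to probes well above background in both samples on 24 of 24 arrays, the shares were 5.36% of 56 MHC-linked probes, 5.19% of 482 further olfactory receptor probes and 20.8% of all 5899 such probes. The largest difference among the further probes was that of *Olr1286*, at 0.30 and above 0 in 12 of 12 rats (adjusted p = 1.1e-04 by limma), which is over the highest member mean of 0.13.

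Of the 5 genes that lie between the olfactory receptors in the MHC gene table, only *Ubd* had a called probe. *Ubd*, which encodes a ubiquitin-like modifier known to be induced by interferon-γ, is listed between *Or5* and *Or6* and had a ratio of -1.43 ± 0.65 (SD, n = 12), below 0 in 12 of 12 rats from -2.52 to -0.56, with an adjusted p of 2.2e-04 by limma on gene means. Its neighbors *Or5* and *Or6* had gene means of -0.041 and -0.027. The sign for *Ubd* follows the dye labels, whereas the study's array results and qRT-PCR had it higher in allogeneic explants. Of the 8 genes listed just before *Or1*, 2 had a called probe. The class I gene *RT1-M6-2* was at -0.15 (adjusted p = 0.0075), below 0 in 10 rats. For *Zfp57*, a zinc finger protein gene, 1 of 5 probes passed. Among the genes in the cluster, *RT1-M3-1*, a class Ib gene between *Or10* and *Or11*, was at -0.11 ± 0.27 (SD, n = 12), with an adjusted p of 0.37. In all, 3 of 46 probes of these 13 neighboring genes passed, 1 higher and 2 lower. Among all 549 probes of other MHC genes 155 passed, 40 higher and 115 lower, or 28.2%.

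**Figure D5:**
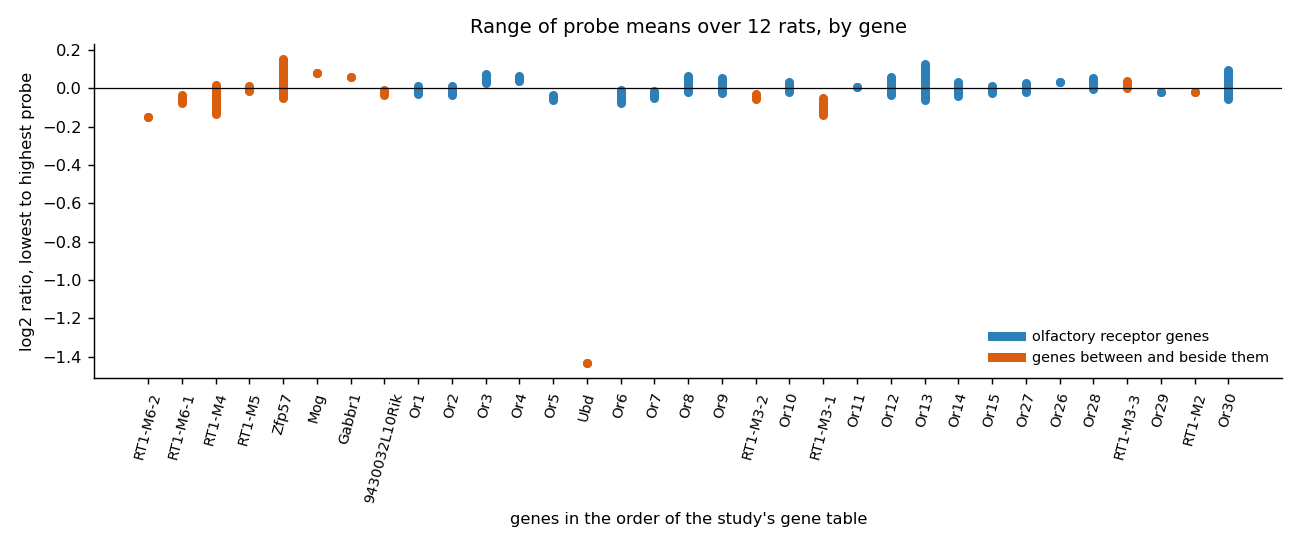
Lowest to highest probe mean of the log2 ratio of allogeneic over syngeneic (y axis, 12 rats) for the olfactory receptor genes (blue) and the genes between and beside them (orange), in the order of the MHC gene table (x axis). *Ubd*, at -1.43, lies far below the olfactory receptor genes on both sides of it, whose probe means stay between -0.074 and 0.13.

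The genes that carry the olfactory signal were read from a list of 38. The array held 25 probes for 18 of them, and 14 of the 18 had a probe well above background in both samples on 24 of 24 arrays. By limma 5 probes were higher and 1 lower in the allogeneic sample, with a median over the 25 probes of 0.039. Directions in this list also follow the dye labels, and which direction holds was not tested. Of all probes on the array 17.3% passed, and 8.78% passed as higher. The difference from these shares was not tested. *Adcy3*, the adenylyl cyclase of olfactory neurons, ranged from -0.18 to 0.32 with a median of 0.15 and a mean of 0.14, above 0 in 11 of 12 rats (adjusted p = 0.022). *Arrb2*, an arrestin that uncouples many receptors, was below 0 in 12 of 12 rats, from -0.91 to -0.16, with a mean of -0.44 (adjusted p = 0.0012). *Gnal*, the olfactory G protein subunit, had probes at -0.065 and -0.073, with adjusted p of 0.16 and 0.10. The other calls were single probes for *Gnas* (0.18), *Prkaca* (0.13), *Camk2g* (0.13) and *Camk2b* (0.14), of which *Gnas*, *Prkaca* and *Camk2b* also had a probe that did not pass. These genes are used by many receptors and cell types. The cyclic nucleotide-gated channel subunit *Cngb1* had means of 0.0031 and 0.039 with no call.

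Markers of cell types were read as well, beside the 17.3% of all probes and 16.2% of all gene means that passed limma. Of 9 T cell markers 8 were on the array, and 4 were lower and 0 higher in the allogeneic sample, with a median gene ratio of -0.29. The mean log2 level over this list was 7.62 to 8.60 in the allogeneic and 7.87 to 8.96 in the syngeneic samples. Of 7 macrophage markers 4 were measured, 2 of them lower, with mean levels of 8.60 to 9.54 in the allogeneic and 9.00 to 10.02 in the syngeneic samples. All directions here follow the dye labels. The study's qRT-PCR of some of these sample pairs found *Cd3z* and *Aif1* higher in the allogeneic explants. Which direction holds was not tested. The keratinocyte list had 1 gene on the array, *Tp63* (level 11.65 to 14.12 and 11.31 to 14.12), and the fibroblast list 2, of which 1 was higher (11.34 to 13.67 and 10.80 to 13.29). Of 8 markers of olfactory sensory neurons, *Adcy3*, *Ncam1* and *Gnal* were measured, while *Omp*, *Cnga2*, *Cnga4*, *Gng13* and *Stoml3* were not on the array. The 3 measured genes were at 8.49 to 8.88 and 8.31 to 8.59, and 2 of the 3 were higher. *Gnal* was not, with probes at -0.065 and -0.073. Whether such neurons were present in the explants was not tested. No marker measured was below background on all arrays. The part of cell composition in the olfactory receptor values was not tested.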

How the data were processed

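The 24 arrays, 2 for each of 12 rats with the dyes exchanged, were grouped by the labels. The study's methods give a paired 12 x 2 swap design. Feature Extraction 9.5.1.1 wrote the deposited scanner files, which give for either dye a mean spot intensity, a median intensity of the local background and a processed intensity. The same files hold flags (0 or 1, no unit) for signal well above background, and name build rn3. The authors also deposited a table of log2 ratios per array, whose background treatment and centring are not given in the sources used here. Its columns followed Cy5 over Cy3 for 12 arrays (allogeneic sample in Cy5 by the labels) and the opposite for the other 12 (size of r from 0.70 to 0.99). By the dye labels they therefore run as allogeneic over syngeneic, which does not test whether the labels hold. Their medians lay between -0.025 and 0.022. The submitters' processing notes name limma. The p-values and fold changes in the study's tables were not used. Symbols, gene order and probe lists came from its MHC gene table, of whose 649 probes 639 were found.

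In R 4.3.3, limma 3.58.1 was used, with normexp background correction (offset 50) and loess within arrays, control and outlier spots (178 to 258 per array) being left out and saturated spots kept. Arrays with the allogeneic sample in Cy3 were turned, spots of a probe averaged (2 to 4 spots, 3 for 86 of the 90 probes), and both arrays of a rat averaged, as they hold the same RNA. Each rat enters both groups on the same array, so that no pairing term was needed. Limma tested 12 values against 0 with adjustment over 8453 probes, or over 7249 genes for means over the probes of a gene. The depth of an array is not a read count, and precision rests on the 12 rats. The median spot intensity ran from 135.5 to 6668 in Cy3 and from 269.2 to 25640 in Cy5, and 216.4 and 414.9 were the highest values without array 1 of rat 10.

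Of the 90 member probes, 64 carried an accession found in the RefSeq gene table (GRCr8), which was used for names only. Named genes are those with a called probe, *Or8*, *Or13* and *Or28*, the 3 highest and 3 lowest gene means, up to 5 genes with probes above background on all arrays, and the genes with 1 probe. *Olr1286*, the neighboring genes and the catalog probes outside the table were named after their values were seen. The members, lists and tests were chosen with earlier results of these data known. The code was tested on simulated data. Alternatives concerned the background correction, the normalization, the deposited log2 table, the dye orientation, dim probes, outlier spots, the bright array, the slide, the test, the combination of probes and each rat left out. Leaving out rats 8 and 10 together and exchanging the custom probes of *Or9* and *Or28* were added after the data were seen.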

Additional observations from a re-analysis of the deposited data

How the results depend on the processing

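The number of called olfactory receptor probes, 4 from 4 genes, was 3 to 6 without background correction, with plain background subtraction, with outlier spots kept, without dim probes (75 of the 90 left), with the slide as a block, in the deposited log2 table, in the replicate-block fit of 24 arrays (3 probes) and without rats 8 and 10. Over all probes, 17.3% were called, and 16% to 19.9% in these alternatives but for the last (25.2%). Leaving out 1 rat gave 3 to 5 probes from 3 to 4 genes (13.7% to 24.7%). It was 8 probes from 8 genes with the processed signals (18.6% of all probes) and 8 from 7 by the plain t test of the rat means (16.2%). It was 13 from 10 by the exact signed-rank test (19.5%, 8 of the 13 higher) and 2 from 2 with median centring (14.3%). Without array 1 of rat 10 it was 7 from 5 (18.6%), where 3 *Or4* probes and an *Or5* probe were added and that of *Or30* was lost. With the allogeneic sample in Cy5 only it was 15 from 10 genes (31.5%), and in Cy3 only 24 from 11 genes (29.6%), where the called *Or30* probe turned to -0.047 (adjusted p = 0.30). The test of gene means gave 0 genes except with a single orientation. It then gave 2 of the 20 with the allogeneic sample in Cy5, against 30.2% of all genes, and 4 with it in Cy3, against 28.6%. The cause of these differences was not tested, except that a single orientation keeps each probe's dye effect. The probe of *Or3* kept its call in every fit but that with median centring (adjusted p = 0.060) and the Cy5 arrays alone, and that of *Or13* in all but the Cy3 arrays alone (adjusted p = 0.093). That of *Or28* lost it with median centring (adjusted p = 0.22) and in the Cy3 arrays alone. That of *Or30* also lost it in the deposited log2 table (adjusted p = 0.051) and without rats 8 and 10 (0.053). The median ratio of the 90 probes stayed within 1 SD of the rat medians (0.022) in each alternative, from -0.0068 to 0.0061 with 1 rat left out. Exchanging the custom probes of *Or9* and *Or28* left 4 genes with a call. Counted on at least 1 array, 90 probes were above background, 2 of them on array 1 of rat 10 alone. On that array 99.91% of spots were well above background in Cy5, so that this count says little about single probes. By the flag for positive and significant signal, 72 probes passed on all 24 arrays. No rat correlated below -0.3 with the others, so that no sign was turned. This check compares rats with each other and cannot show an exchange of the labels common to all arrays. Probes near background limit the dim members to statements about signal, and groups of 12 are not screened for outlying samples.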
